A study of Arabidopsis thaliana with 6 samples.

Results

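The plastid-encoded photosynthesis genes of Arabidopsis thaliana were examined in dry seeds of the wild type, Col, and of hda9-1. They are the genes of the plastid genome whose platform symbol starts with psa, psb, pet, ndh or atp plus a capital letter, and rbcL. Of 13356 genes with a probe set paired with 1 gene, 43 met this rule, each through 1 probe set, and the gene table of assembly TAIR10.1 holds 1 further gene of the rule, ndhB, whose probe set names several entries and was left out. The 43 comprised 5 genes of photosystem I, 15 psb genes, 6 of the cytochrome b6f complex, 10 of the NDH complex, 6 of the ATP synthase and rbcL. The hda9-1 line carries a T-DNA insertion (SALK_001723) in HISTONE DEACETYLASE 9 (HDA9), the gene of a histone-deacetylating enzyme, and Col carries no allele or agent in the labels. Both genotypes were grown on soil under a day of 16 h at 22 °C and a night of 8 h at 16 °C, and their siliques were harvested ripe, 18 to 19 days past pollination. There were 3 biological replicates of each, every one a pool of siliques from at least 5 plants, with 1 Affymetrix ATH1 array per replicate. The mutant is a single insertion allele, and the HDA9 transcript was not analysed here, so it gave no check of the genotypes. The labels name dry seeds in the sample fields and dry siliques in the design text.

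The plastid genome encodes many core subunits of the complexes of the thylakoid membrane, while the nucleus encodes their other subunits and all light-harvesting proteins. Photosystem II splits water, the cytochrome b6f complex passes its electrons on to photosystem I, the NDH complex returns electrons around photosystem I, and the ATP synthase uses the proton gradient that these build. Most of the genes lie in units that are transcribed together and then cut into smaller RNAs. An Arabidopsis embryo greens during mid seed development and its plastids lose chlorophyll and thylakoids again as the seed matures. RNA of these genes in a dry seed is read here as stored RNA, and no earlier stage was measured.

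All values are log2 signals of a probe set, and a change is the mean of hda9-1 minus the mean of Col, with the standard error (SE) of a limma fit over all 22746 tested probe sets. A gene is called at a limma adjusted p under 0.05, adjusted by Benjamini-Hochberg over all tested probe sets. Signals of different probe sets are not comparable as transcript amounts. The mean signals of the 43 genes ran from 5.91 for psaA to 13.27 for psbM, and all 43 were above the median probe set. Precision is limited by having 3 arrays in each group. Col replicate 3 stood apart in its control probe sets, with a 25S ribosomal RNA signal of 12.16 against 11.05 to 11.43 on the other 5 arrays and an actin 3′ excess over 5′ of 1.58 log2 units against 0.96 to 1.28. Among marker genes, the seed storage gene PAP85 stood at 14.21 in Col and 14.24 in hda9-1. The oleosin gene OLEO3, of oil bodies, stood at 10.04 and 9.43 (limma adjusted p = 0.0805, and 0.0291 with the replicate block), and these 2 were the measured genes of a seed list of 11. The silique wall list had 2 of 7 genes measured and a summed signal of 12.83 to 12.87 in Col and 12.24 to 12.52 in hda9-1. The seed coat list had 3 of 9, at 9.19 to 9.33 and 9.55 to 9.92, the endosperm list 1 of 5, at 3.11 to 3.73 and 3.38 to 3.59, and the pollen list 1 of 3, at 3.98 to 4.27 and 4.15 to 4.28. The silique wall sum followed its brighter gene, the polygalacturonase gene ADPG1 (log2 change −0.51, limma adjusted p = 0.0399), while the other measured gene, ALC, stood at 0.39 (adjusted p = 0.285) with all hda9-1 arrays above all Col arrays. In the seed coat list, DELTA-VPE was called higher (1.45, adjusted p = 0.0496), with ARA12 at 0.31 and BAN at 0.10 uncalled. The part of these tissues in the plastid values was not tested.

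Transcripts of the plastid photosynthesis genes had slightly higher mean signals in hda9-1, and 1 of them passed the test. psbK, a small subunit of photosystem II, rose 1.57-fold, by 0.65 on the log2 scale, with an SE of 0.11 and a limma adjusted p of 0.0288. Of the 43 genes, 41 had a positive change, and the exceptions were psaB and psbA, core genes of photosystem I and photosystem II. Their median log2 change was 0.35, with the middle of the distribution from 0.26 to 0.39, against −0.00 over all tested probe sets. Positive changes made up 95.3% of the 43, 48.8% of all tested probe sets and 53.7% of those within the signal range of the 43. The 43 genes share arrays and, in part, transcripts, so their signs were not independent. The single call was 1 of 43, where 1.37% of all tested probe sets were called higher and 3.82% in either direction, so the count of calls was close to the background. No gene of the 43 was called lower, where 2.45% of all tested probe sets were, although psaB had an unadjusted p under 0.05. At an unadjusted p under 0.05, 12 of the 43, or 27.9%, were higher, against 9.59% of all tested probe sets. Of the 10108 tested probe sets within the signal range of the 43, 1598 were higher at that level.

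The median moved with single arrays. It was 0.17 without Col replicate 2, with 36 positive changes, 0.24 without hda9-1 replicate 2 and 0.52 without Col replicate 3. psbK was called when Col replicate 3 was left out. Leaving out any other array ended the call, and its limma adjusted p then lay between 0.0547 and 0.112. In bulk samples, labelled as dry seeds or dry siliques, more cells or plastids holding these transcripts in hda9-1 and more of the transcripts in each cannot be told apart.

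**Figure D1:**
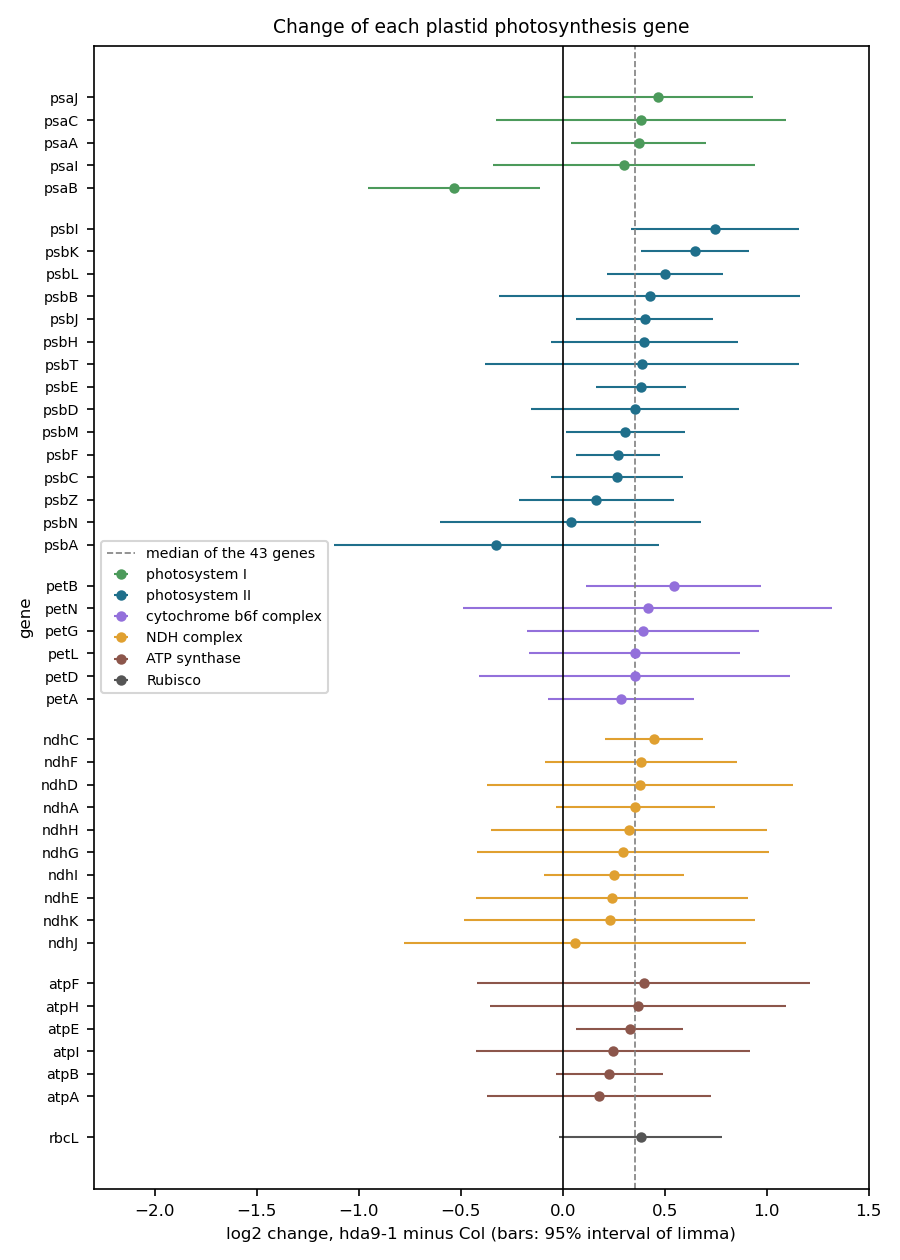
Log2 change of each of the 43 genes (x axis, hda9-1 minus Col) with its 95% interval from limma, genes on the y axis grouped and coloured by complex, and a dashed line at their median of 0.35. All points but psaB and psbA lie right of 0, and 30 of the 43 intervals include 0.

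Separation of the arrays gave a similar picture. In 8 of the 43 genes, or 18.6%, all 3 hda9-1 arrays lay above all 3 Col arrays, namely psbK, psbI, psbL, psbE, psbF, ndhC, atpE and psaA. Over all tested probe sets this share was 11.6%, and it was 17.2% over the tested probe sets within the signal range of the 43, so the share was near that of probe sets of like signal. None of the 43 had all hda9-1 arrays below all Col arrays, against 12.1% of all tested probe sets. Without Col replicate 3, 20 of the 43 were separated upwards, where 17.2% of all tested probe sets were. Among the 26 other measured genes of the plastid genome the count rose too, from 1 to 9. Of the 10108 tested probe sets within the signal range of the 43, 2276 were then separated upwards. The count was 18 without hda9-1 replicate 1, where 16.4% of all tested probe sets were separated upwards, and 14 without hda9-1 replicate 3, where 15.4% were.

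**Figure D2:**
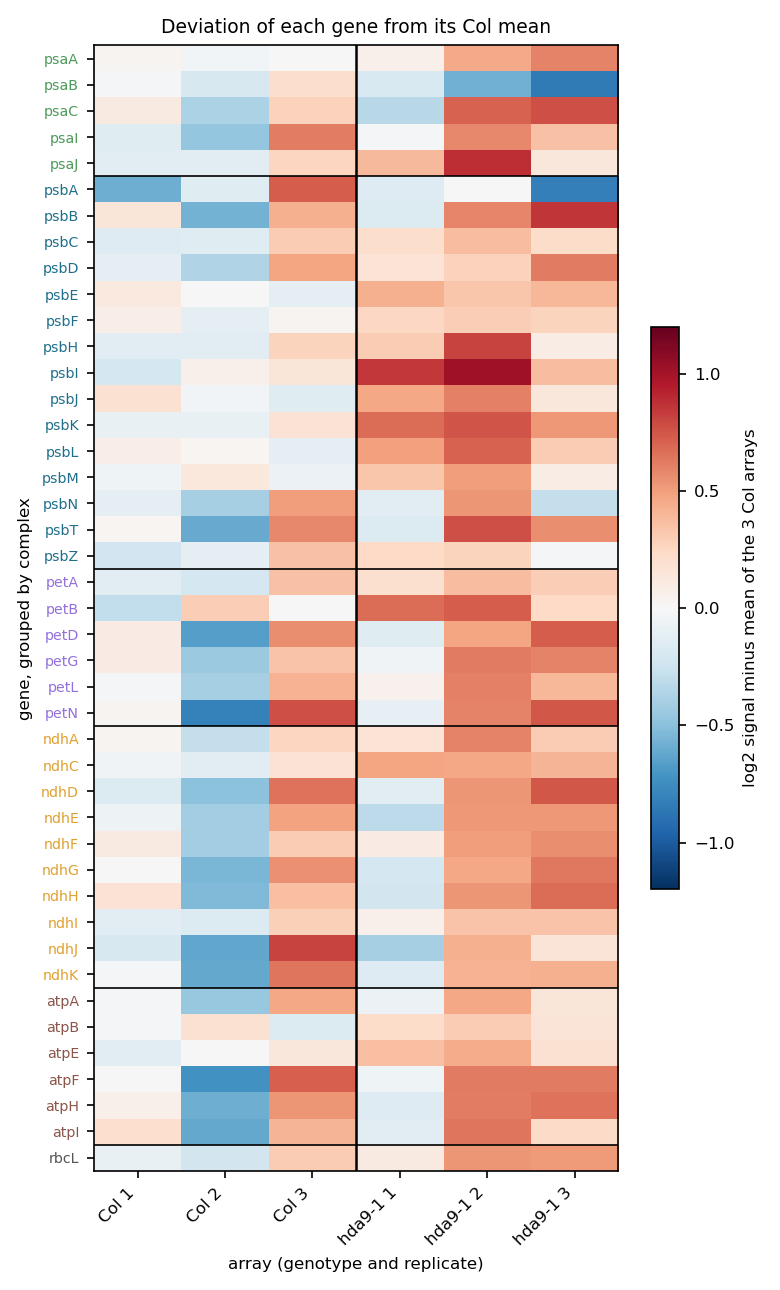
Each row is 1 of the 43 genes, each column an array, and colour gives the log2 signal minus the mean of that gene's 3 Col arrays, from blue (lower) to red (higher). Col 2 is the bluest Col column, and the Col 3 column lies above the Col mean for most of the 43 genes, with psbE, psbJ, psbL, psbM and atpB below it.

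Of 10 genes of small subunits of photosystem II, all had a positive change, with a median of 0.39 against 0.35 for the 43, and 1, psbK, was called. An unadjusted p under 0.05 was found for 7, against 9.59% of all tested probe sets in the upward direction, and 5 had separated arrays, against 11.6%. Within the signal range of the 43, these were 1598 of 10108 tested probe sets and 17.2%. The co-transcribed unit of psbE, psbF, psbL and psbJ held 4 of the 7 and 3 of the 5. That of psbK and psbI held 2 of each, so these genes were not independent. These genes were not tested as a group. psbK read 9.03, 9.03 and 9.30 in Col replicates 1, 2 and 3 and 9.79, 9.88 and 9.64 in hda9-1 replicates 1, 2 and 3. Its arrays were separated by 0.34 log2 units, the widest gap of the 43 genes, and the 95% interval of its change ran from 0.38 to 0.91.

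psbI, which encodes a short subunit beside the reaction centre and lies next to psbK on the plastid genome, read 9.20, 9.47 and 9.55 in Col and 10.25, 10.42 and 9.78 in hda9-1. All hda9-1 arrays were above all Col arrays, with hda9-1 replicate 3 the closest to them. Its log2 change of 0.75 (SE 0.18, limma adjusted p = 0.0654), the largest of the 43, did not pass. With an intensity trend and robust variances the adjusted p was 0.0491, with the filter on dim probe sets 0.0499, with array weights 0.0242 and without hda9-1 replicate 3 0.0436.

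psbL, a small subunit needed for electron transfer within photosystem II, read 8.31, 8.25 and 8.12 in Col and 8.72, 8.93 and 8.53 in hda9-1. The groups did not overlap, and Col replicate 3 was the lowest array, unlike in most of the 43 genes. The log2 change was 0.50 (SE 0.12, limma adjusted p = 0.0705), and it was called with the replicate number as a block (adjusted p = 0.0425) and with array weights (0.0453). With the block, 2 of the 43 were called higher, psbK and psbL, where 2.75% of all tested probe sets were. None was called lower, where 3.64% were, and calls in either direction made up 6.39%.

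psbE and psbF encode the cytochrome subunits of photosystem II and are co-transcribed with psbL and psbJ. psbE read 9.06, 8.94 and 8.82 in Col and 9.36, 9.27 and 9.33 in hda9-1, a difference of 0.38 (SE 0.10) with a limma adjusted p of 0.0722. psbF read 10.16, 9.98 and 10.12 in Col and 10.33, 10.39 and 10.35 in hda9-1, a difference of 0.27 (SE 0.09) with an adjusted p of 0.149. In both genes the 3 hda9-1 arrays lay close together and above every Col array, with residual SDs of 0.09 and 0.07, the lowest of the 43.

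psbM, the brightest probe set of the 43, read 13.07, 13.24 and 13.05 in Col and 13.45, 13.62 and 13.21 in hda9-1. Its groups overlapped between Col replicate 2 and hda9-1 replicate 3, and the change was 0.31 (SE 0.13, limma adjusted p = 0.234). psbZ, a subunit at the edge of the core, read 9.86, 9.97 and 10.43 in Col and 10.32, 10.36 and 10.07 in hda9-1, with Col replicate 3 above every hda9-1 array and a change of 0.17 (SE 0.16, limma adjusted p = 0.678). psbJ was at 0.40, psbH at 0.40 and psbT at 0.39. psbN, whose product helps to assemble the complex and is read from the strand opposite to its neighbours, read 7.86, 7.56 and 8.46 in Col and 7.83, 8.49 and 7.67 in hda9-1. The psbN groups overlapped throughout, with a change of 0.04 (SE 0.28, adjusted p = 0.967).

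The large core proteins of photosystem II gave no call. psbA encodes the D1 protein of the reaction centre, which is replaced continually in the light. It read 9.98, 10.43 and 11.29 in Col and 10.41, 10.56 and 9.74 in hda9-1. The arrays overlapped across a range of 1.55 log2 units, the change was −0.33 (SE 0.34, limma adjusted p = 0.701), and it was 0.04 without Col replicate 3, the highest array. psbD, for the partner protein D2, read 7.12, 6.87 and 7.70 in Col and 7.39, 7.51 and 7.85 in hda9-1, and overlapped only through Col replicate 3 (change 0.35, SE 0.22, adjusted p = 0.459). The genes of the inner antenna proteins were at 0.43 (psbB) and 0.27 (psbC), with SEs of 0.32 and 0.14.

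**Figure D3:**
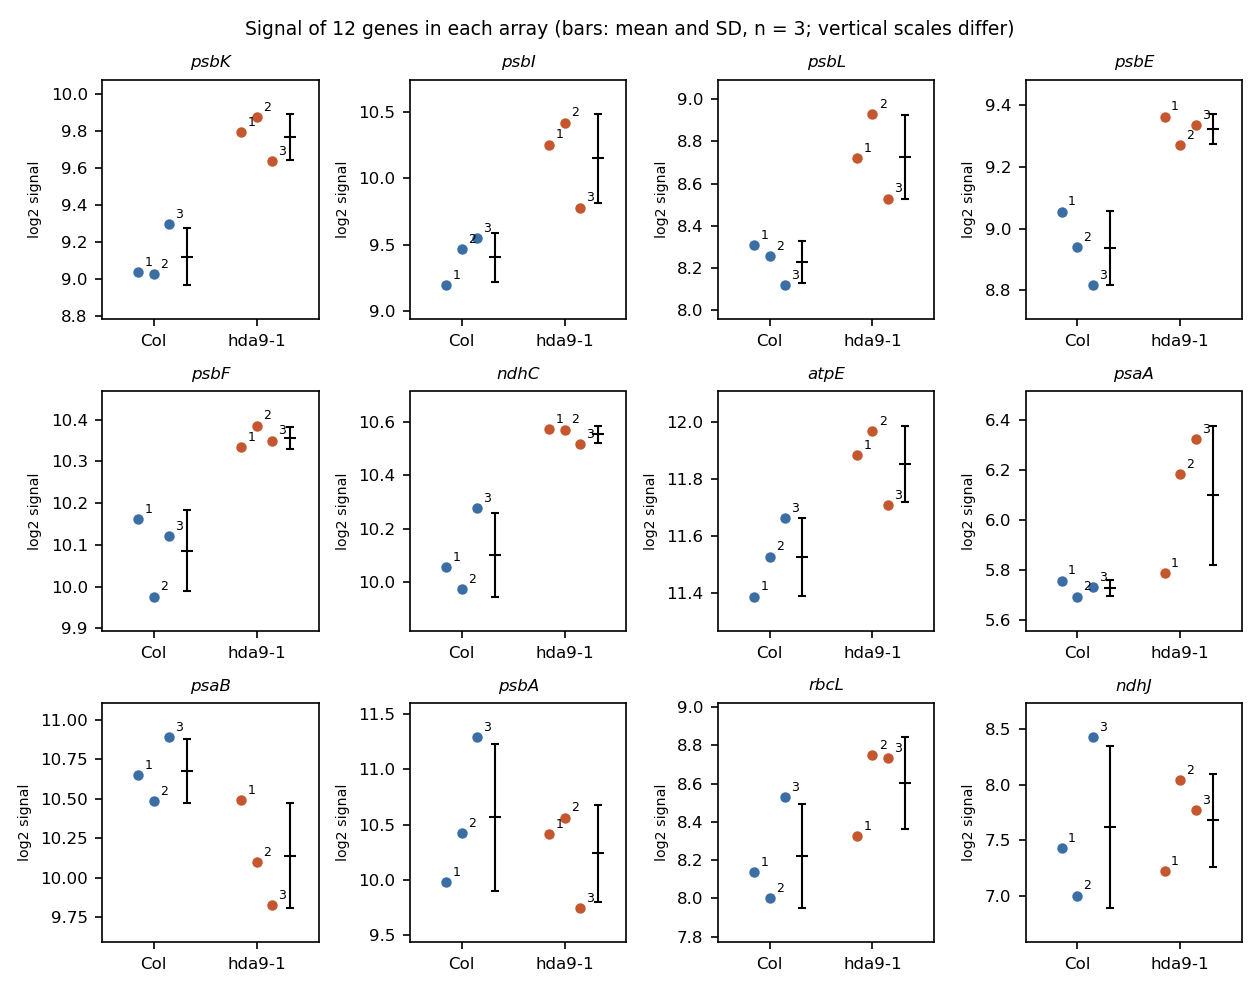
Log2 signal (y axis, scales differ between panels) of 12 genes on the 3 Col and the 3 hda9-1 arrays, numbered by replicate, with mean and SD bars (n = 3). The first 8 panels, psbK to psaA, show the genes whose arrays did not overlap, and psaB, psbA, rbcL and ndhJ show overlapping arrays.

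In photosystem I, the genes of the paired core proteins differed in sign. psaA and psaB encode the large proteins that together bind the reaction centre chlorophylls, and they are transcribed as 1 unit. psaA read 5.76, 5.69 and 5.73 in Col and 5.79, 6.18 and 6.33 in hda9-1, a change of 0.37 (SE 0.14, limma adjusted p = 0.204). hda9-1 replicate 1 was only 0.03 above the highest Col array. psaB read 10.65, 10.48 and 10.89 in Col and 10.49, 10.10 and 9.83 in hda9-1, a change of −0.53 (SE 0.18, adjusted p = 0.158). Its 95% interval ran from −0.96 to −0.11, and the groups overlapped only between Col replicate 2 and hda9-1 replicate 1. psaB kept its sign in each fit run.

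The signal of psaA minus that of psaB, taken within each array, was −4.95 ± 0.19 in Col and −4.04 ± 0.61 in hda9-1 (SD, n = 3 each). It changed by 0.91 log2 units, and all hda9-1 arrays were above all Col arrays. The two-sided exact permutation test gave p = 0.1, the smallest value that 3 arrays against 3 allow, and 0.978 after adjustment over the 11 such differences computed. psaA had the dimmest probe set of the 43.

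The other 3 photosystem I genes had positive changes and overlapping arrays. psaJ, a small subunit, read 7.89, 7.89 and 8.28 in Col and 8.41, 8.90 and 8.16 in hda9-1, a change of 0.47 (SE 0.20, limma adjusted p = 0.257). hda9-1 replicate 3 lay below Col replicate 3 there. psaC, which binds the terminal iron-sulfur clusters, was at 0.38 (SE 0.31), and psaI was at 0.30 (SE 0.28).

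All 6 genes of the cytochrome b6f complex had positive changes, from 0.28 to 0.54, and none was called or had separated arrays. petB, which encodes the cytochrome b6 protein, read 10.35, 10.94 and 10.65 in Col and 11.32, 11.37 and 10.88 in hda9-1. Its change was 0.54 (SE 0.18, limma adjusted p = 0.158), and the overlap lay between Col replicate 2 and hda9-1 replicate 3. petG, a small subunit, read 7.01, 6.47 and 7.26 in Col and 6.87, 7.54 and 7.50 in hda9-1, with hda9-1 replicate 1 below 2 of the Col arrays and a change of 0.39 (SE 0.24, limma adjusted p = 0.462). petN, another small subunit, had the largest residual SD of the 43, 0.64, with a change of 0.42 (SE 0.39). petD, petL and petA, the last for cytochrome f, were at 0.35, 0.35 and 0.28.

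The NDH complex had 10 measured genes, all with positive changes and a median of 0.31. ndhC, a membrane subunit, read 10.06, 9.97 and 10.28 in Col and 10.57, 10.57 and 10.51 in hda9-1. The hda9-1 arrays lay within 0.06 of one another and 0.24 above the highest Col array. The change of 0.45 (SE 0.10, limma adjusted p = 0.0598) did not pass, and it was called without Col replicate 3 (adjusted p = 0.0395) and with array weights (0.0230).

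The other 9 NDH genes had overlapping arrays, with changes from 0.06 for ndhJ to 0.38 for ndhF. ndhJ read 7.43, 7.00 and 8.43 in Col and 7.22, 8.04 and 7.78 in hda9-1, with the Col arrays spanning the hda9-1 arrays on both sides (SE 0.36, limma adjusted p = 0.959). ndhH, the dimmest of the NDH group, read 5.94, 5.24 and 6.13 in Col and 5.55, 6.30 and 6.44 in hda9-1. Its change was 0.33 (SE 0.29, adjusted p = 0.636), and 1 hda9-1 array lay below 2 Col arrays. The median residual SD of the NDH genes was 0.47, against 0.18 for the small photosystem II subunits and 0.14 for all tested probe sets.

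The 6 ATP synthase genes had changes from 0.18 (atpA) to 0.40 (atpF), and none was called. atpE, for the epsilon subunit, read 11.39, 11.53 and 11.66 in Col and 11.88, 11.97 and 11.71 in hda9-1. The groups were separated by 0.04 log2 units, with a change of 0.33 (SE 0.11, limma adjusted p = 0.161). atpB, for the catalytic beta subunit, is co-transcribed with atpE and was at 0.23 (SE 0.11). atpI, a membrane subunit, read 6.32, 5.50 and 6.52 in Col and 5.98, 6.75 and 6.34 in hda9-1. Its arrays overlapped, with a change of 0.25 (SE 0.29, adjusted p = 0.737) that turned to −0.06 without Col replicate 2, the lowest array.

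rbcL encodes the large subunit of Rubisco, the enzyme that fixes carbon dioxide. It read 8.14, 8.00 and 8.53 in Col and 8.33, 8.75 and 8.73 in hda9-1. Col replicate 3 lay above hda9-1 replicate 1, so the groups overlapped, and the change was 0.38 (SE 0.17, limma adjusted p = 0.282). Without Col replicate 3 the groups were separated.

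The changes of the photosynthesis genes within co-transcribed units are given as ranges, and the middle of all 43 lay from 0.26 to 0.39. psbK and psbI, at 0.65 and 0.75, formed the unit with the highest values, and both had separated arrays. In the unit of psbE, psbF, psbL and psbJ the changes ran from 0.27 to 0.50, all 4 had an unadjusted p under 0.05, and only psbJ had overlapping arrays. The 7 genes of the unit from ndhH to ndhD, which includes psaC, ran from 0.24 to 0.38 with none separated. In the unit of psbB, psbT, psbH, petB and petD the changes were 0.35 to 0.54, and in that of atpI, atpH, atpF and atpA 0.18 to 0.40. ndhC, ndhK and ndhJ were at 0.45, 0.23 and 0.06, and the unit of psbD, psbC and psbZ ran from 0.17 to 0.35. The remaining pair of atpB and atpE was at 0.23 and 0.33, psaI and petA were at 0.30 and 0.28, and petL, petG and psaJ ran from 0.35 to 0.47.

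The first and the last measured gene of each of 11 units were compared within arrays. Apart from psaA against psaB, given above, the change of the difference between genotypes lay between −0.12 for petL minus psaJ and 0.39 for ndhC minus ndhJ. The exact permutation p was 0.5 or higher for each of these 10.

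**Figure D4:**
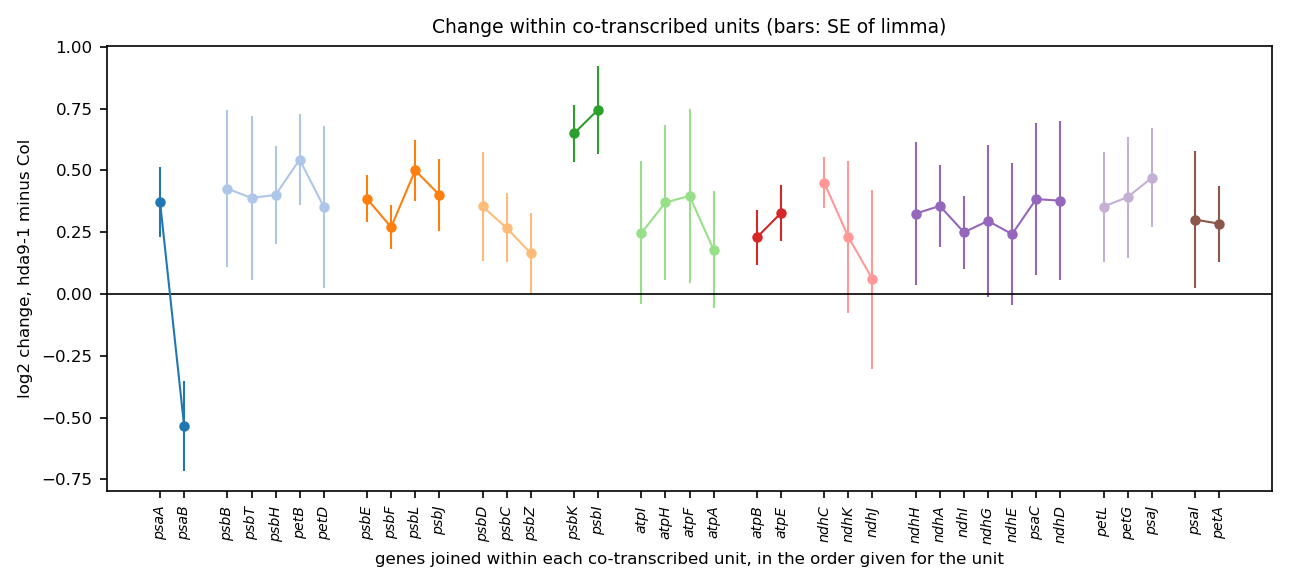
Log2 change (y axis, hda9-1 minus Col, bars: SE) of the photosynthesis genes of 11 co-transcribed units, joined by lines within a unit. psaA and psaB, the first pair, lie on opposite sides of 0, and psbK and psbI are the highest pair.

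The spread between replicates was shared across the genes. Col replicate 2 was the lowest Col array for 31 of the 43 genes and Col replicate 3 the highest for 35, against 38.2% and 38.9% of all tested probe sets. The mean signal over the 43 genes was 8.49, 8.24 and 8.86 in Col replicates 1, 2 and 3, and 8.62, 9.04 and 8.87 in hda9-1. Col replicate 3 thus lay above hda9-1 replicate 1 and level with hda9-1 replicate 3. The median residual SD of the 43 was 0.32.

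The same arrays were high and low in the remaining 26 measured genes of the plastid genome, which encode ribosomal proteins, RNA polymerase subunits and others. Their mean was 8.10, 7.75 and 8.81 in Col and 8.06, 8.69 and 8.52 in hda9-1. Of these 26, 23 had a positive change, where 48.8% of all tested probe sets did, and the median change was 0.17. None was called, where 1.37% of all tested probe sets were called higher and 2.45% lower. In 1 all hda9-1 arrays lay above all Col arrays, or 3.8%, below the 11.6% of all tested probe sets. The mean of the photosynthesis genes minus that of the other plastid genes was 0.40, 0.49 and 0.05 in Col and 0.56, 0.34 and 0.35 in hda9-1. These values of the 2 genotypes overlapped.

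The 5S ribosomal RNA control of the array read 8.10, 7.44 and 8.75 in Col and 7.81, 8.53 and 7.96 in hda9-1, with the same Col array lowest and the same Col array highest. The 25S control read 11.33, 11.43 and 12.16 in Col and 11.05, 11.35 and 11.12 in hda9-1. The part of RNA quality in the plastid values was not tested. Among the 43 genes, Spearman's rho between residual SD and mean signal was −0.53, between log2 change and mean signal −0.03, and between log2 change and gene length −0.24. These describe genes that share arrays and, in part, transcripts.

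**Figure D5:**
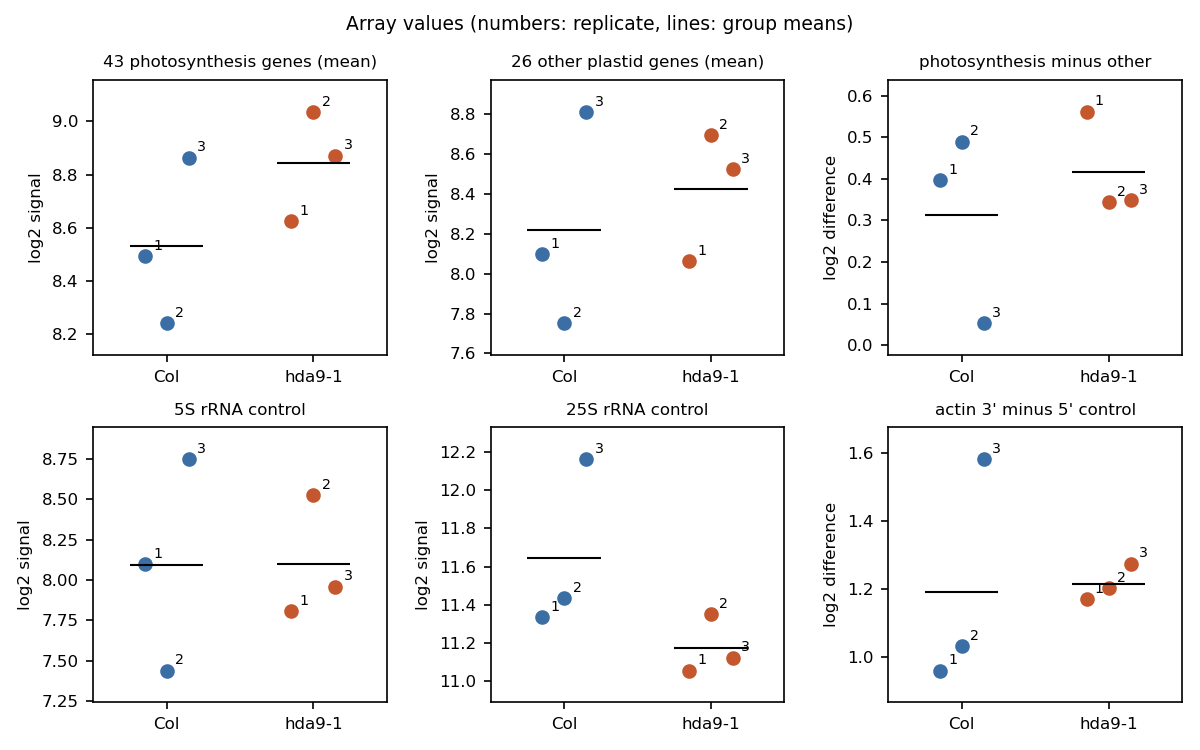
Array-level values for Col and hda9-1, with replicate numbers beside the points and lines at the group means; y axes are log2 signal or a difference of log2 signals. Col 2 is lowest and Col 3 highest among Col arrays in both plastid panels and in the 5S panel.

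Nuclear genes of the same complexes were covered by 10 measured genes. PSAE-1, a photosystem I subunit (log2 change 0.94, SE 0.17, limma adjusted p = 0.0342), and ATPC1, for subunit gamma of the ATP synthase (0.89, SE 0.18, adjusted p = 0.0414), rose. PSB27, which encodes a photosystem II assembly and repair factor, fell, with a log2 change of −0.78, an SE of 0.12 and a limma adjusted p of 0.0203. The other 7 did not pass and ran from −0.53 for LHCB4.3 to 1.44 for PSAN. Calls were thus 2 of 10 higher and 1 lower, against 1.37% and 2.45% of all tested probe sets. The median of all 10 was 0.46. In 4 of 10 all hda9-1 arrays lay above all Col arrays, against 11.6% of all tested probe sets. In 2, PSB27 and LHCB4.3, they lay below, against 12.1%. With the replicate block 4 were called higher, PSAN and PSBW in addition, and 1 lower, against 2.75% and 3.64%. Of these 10, 6 were called in the fit that omitted Col replicate 2, 1 (PSB27) when Col replicate 3 was omitted, and none when Col replicate 1 or any single hda9-1 array was omitted.

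Factors that act on plastid RNA were thinly covered. Of the 34 listed names, 8 were measured, all of them CRR or OTP genes, whose pentatricopeptide repeat proteins edit or process plastid transcripts, several of them of ndh genes. None passed, where 3.82% of all tested probe sets were called in either direction. Their changes ran from −0.17 for OTP81 to 0.31 for OTP84, and their median was −0.01. None of the listed sigma factors, phage-type polymerases or proteins of the plastid transcription complex had a probe set with 1 listed gene here.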

How the data were processed

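From 1 µg of total RNA per sample, biotinylated cRNA was made with the MessageAmp II kit and hybridised to ATH1 arrays, per the labels. The log2 values, between 2.58 and 14.94, were deposited by the authors as a single table, made with RMA and affy per the submitters' processing notes, which also list limma and give no versions or settings. RMA equalises array distributions, so a shift of most transcripts would not be seen. Plastid RNA carries poly(A) mainly during decay, and how the labelling sampled it was not tested.

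Of 22810 probe sets, 64 controls were left out. Probe sets were named through the platform annotation and, by Entrez identifier, the TAIR10.1 gene table. The mitochondrial genes were matched by symbol. Among the 22746 tested, 13513 probe sets had 1 listed gene, 503 had more and 8730 had no listed gene. No build is named for the array, so no coordinates are given, and no sequences were used here. The fit was limma 3.58.1 (lmFit, eBayes) in R 4.3.3, on genotype alone, and it was tested on simulated data. Single within-array differences were tested by exact permutation (scipy 1.17.1). No probe set was filtered, and a gene is represented by its brightest.

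Replicate numbers are shared by the labels of both genotypes. Deviations from group means correlated at 0.34, 0.21 and 0.21 between same-numbered arrays, each over 0.1. From the data alone, the numbers were therefore used as a block in an alternative fit. Blocked values stand beside the calls they change. The main fit, with its SEs, intervals and adjusted p, and the exact permutation did not use the pairing. Nothing beyond the labels' term biological replicate says how samples were separated.

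Genes given with all 6 array values are the called ones (also with the block), the 5 highest and the 5 lowest changes, rbcL, psbA and the brightest and dimmest of each complex, and psbE and psbF were added after their values were seen. Members, lists and tests were chosen with earlier results of these data known. The nuclear list was set by symbol and the lists of RNA factors and markers from textbook knowledge. The dry seed embryo list had 2 of 11 genes measured. Alternatives were the replicate block, trend with robust variances, array weights, median centring, cyclic loess, a filter on dim probe sets and leaving out each array.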

Additional observations from a re-analysis of the deposited data

How the results depend on the processing

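Total calls among the 22746 tested probe sets were 870 (3.82%), and 1453 (6.39%) with the replicate block. They were 909 with trend and robust variances, 1496 with array weights, 867 with median centring and 841 with cyclic loess. With an array left out they were 92 to 834. The dim filter gave 810 among only the probe sets above the median signal, where all 43 genes lay. Calls among the 43 genes were 1, and 2 with the replicate block, with trend and robust variances, or with the dim filter, 4 with array weights and 0 to 2 with an array left out. Median centring and cyclic loess left it at 1. Their median change was 0.34 to 0.36 under the settings with all arrays and 0.17 to 0.52 with an array left out. psbK stayed called in the 6 fits of all arrays besides the main one and, with an array left out, only without Col replicate 3. Signs turned in 6 of the 43 genes, each uncalled. Without Col replicate 2, atpA was −0.048 and ndhK −0.077. With an array left out, the log2 change of ndhJ ran from −0.25 to 0.46, being negative when Col replicate 1 (−0.03), Col replicate 2 or hda9-1 replicate 2 (−0.12) was dropped. For psbN the range was −0.21 to 0.29 (−0.01, −0.16 and −0.21 in those 3 fits), for atpI −0.061 to 0.45 (negative without Col replicate 2) and for psbA −0.62 to 0.037 (positive without Col replicate 3). The cause was not tested. The mean over a gene's probe sets equals the value given, since each gene had 1. The counts of separated arrays without each array, 8 to 20, were added after the data were seen. No background signal was used, so the distance of each gene from background was not tested.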

Other observations

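Among 11 measured genes of the mitochondrial genome, 9 had a negative change, where 11651 of all 22746 tested probe sets did. None was called, where 3.82% of all tested probe sets were called in either direction. Their median log2 change was −0.19, against 0.35 for the 43 plastid photosynthesis genes. Of these mitochondrial genes, cox2, a cytochrome oxidase subunit, was at −0.78 (SE 0.21, limma adjusted p = 0.0913). The gene nad9, of a subunit of respiratory complex I, was at −0.40 (SE 0.22, adjusted p = 0.398). The mitochondrial mean was 5.56, 5.48 and 6.09 in Col replicates 1, 2 and 3 and 5.39, 5.66 and 5.43 in hda9-1. Col replicate 3 was the highest of the 6 arrays there, and Col replicate 2 the lowest of the Col arrays, as in the plastid genes.

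Of the other plastid genes, rpl32, a ribosomal protein gene, had the largest change, 0.67 (SE 0.18, limma adjusted p = 0.0963), with 9.14, 9.43 and 9.28 in Col and 9.98, 10.31 and 9.57 in hda9-1, and it was called with the replicate block. It was the only one of those 26 whose arrays did not overlap. The 4 genes of the plastid RNA polymerase subunits were at −0.11 (rpoC2), 0.13 (rpoA), 0.15 (rpoC1) and 0.44 (rpoB), none of them called.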
